A study of Mus musculus with 12 samples.

Results

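The difference between genotypes in the response to SR9009 was examined in primary mouse hepatocytes: for each gene, the SR9009 effect in cells labelled as lacking REV-ERB minus the SR9009 effect in control cells. Of the 37991 genes in the table, the 11213 with at least 1 FPKM (fragments per kilobase, scaled to depth) in at least 3 libraries were included, and all of them were tested. In every group the cells came from male mice, 10 weeks old, with floxed alleles of REV-ERBα (Nr1d1) and of REV-ERBβ (Nr1d2). Injection of the virus AAV8-TBG-Cre-GFP 2 weeks earlier gave the KO-labelled cells, and AAV8-TBG-GFP gave the controls; the TBG promoter is active in hepatocytes, so other liver cells keep both genes. Plated cells received the solvent DMSO or 10 µM SR9009, a small molecule introduced as an agonist of REV-ERB, for 8 h. Each combination of genotype and treatment has 3 libraries, 12 in all, and the groups are named by both, as in KO-labelled SR9009. No group carries Cre without floxed alleles, so effects of Cre and of REV-ERB loss cannot be told apart. Nothing in the labels says whether the 3 libraries of a group came from separate mice, so the spread behind each p-value may be technical and covers these samples alone.

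REV-ERBα and REV-ERBβ are heme-binding nuclear receptors that repress transcription. They occupy ROR response elements, DNA sites shared with the activating ROR receptors, and recruit the corepressor NCoR with the histone deacetylase HDAC3. In the liver they close a loop of the circadian clock by repressing Arntl (BMAL1) and Npas2, and they restrain genes of lipid and glucose metabolism. The comparison asks which SR9009 responses need REV-ERB. A response that needs the receptor would be absent from KO-labelled cells and would appear as an interaction. A response that does not need it could be of like size in both genotypes. It would then add, on the log scale, to the difference between genotypes in DMSO, termed loss below. An interaction alone does not show that the receptor is needed, since its size and sign can depend on the scale (Gstm3, below).

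The values of a library summed to 538521 to 604449 FPKM, and 10611 to 10932 genes reached 1 FPKM in each. Low values fall on steps, and their commonest ratio to control DMSO library 1 (100%) gave an estimate of relative depth. It was lowest in control SR9009 library 1 (55.5%) and in KO-labelled DMSO library 1 (63.4%), and 77.0% to 92.3% in the other 9. The commonest ratio was held by 36 of 1407 genes compared in control SR9009 library 1 and 51 of 1934 in KO-labelled DMSO library 1. The 19 hepatocyte markers in the table, of 20 listed, summed to 33500.0 to 42310.0 FPKM in a library. The 12 markers of Kupffer cells, the liver's macrophages, summed to 40.6 to 69.2 FPKM, the 10 endothelial markers to 9.38 to 19.9, the 10 stellate cell markers to 1.80 to 3.30, and the 11 lymphocyte and neutrophil markers to 0.141 to 1.30. The 8 markers of cholangiocytes, the bile duct cells, summed to 42.5 to 65.3 FPKM in control and 32.8 to 42.2 in KO-labelled libraries, the highest sum being in a control SR9009 library. For the Kupffer list the sums were 55.4 to 69.2 in control DMSO, 57.3 to 62.2 in control SR9009, 40.6 to 53.8 in KO-labelled DMSO and 51.1 to 54.8 in KO-labelled SR9009, and the ranges of the DMSO and SR9009 libraries overlapped in each genotype. Between genotypes neither the Kupffer nor the endothelial sums overlapped: every control library was above every KO-labelled library for the Kupffer list and below it for the endothelial list. Single Kupffer markers disagreed with their sum. In DMSO, C1qb was lower in KO-labelled cells (log2 difference -0.77, adjusted p = 0.00539), but Cd68 was higher (0.36, adjusted p = 0.0318). The part of these cells in the genotype differences was not tested. In bulk samples, fewer cells of a type and less RNA per cell cannot be told apart.

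The transcripts of the floxed genes themselves did not mark the genotype. Nr1d1 stood at 18.3, 18.3 and 19.0 FPKM in control DMSO and 20.1, 19.0 and 19.4 in control SR9009, and at 17.4, 17.5 and 18.3 in KO-labelled DMSO and 22.5, 21.5 and 22.2 in KO-labelled SR9009. The Nr1d1 level was called higher with SR9009 in KO-labelled cells (log2 change 0.30, adjusted p = 0.00472) and not in control cells (0.067, adjusted p = 0.547), and its interaction was not called (0.24, adjusted p = 0.599). Nr1d2 was at 15.3 ± 1.87 and 15.3 ± 1.67 FPKM (SD, n = 3) in control cells with DMSO and SR9009, and 16.2 ± 0.0949 and 17.7 ± 1.58 in KO-labelled cells, with an interaction of 0.12 (adjusted p = 0.916). Here and below, called means an adjusted p under 0.05 over all 11213 genes. A whole-gene value can count what is left of a transcript after some exons are lost, so these levels do not check the deletion. Arntl, which REV-ERB represses, did differ: its control DMSO libraries held 0.178, 0.159 and 0.306 FPKM and those of KO-labelled DMSO 6.30, 6.33 and 6.85.

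Few responses differed between the genotypes beyond the spread of the libraries. The interaction was called for 3 of 11213 genes (0.0268%), 2 positive (0.0178%) and 1 negative (0.00892%): Hmox2 and Vma21, which fell with SR9009 in control cells and were not called in KO-labelled cells, and Gstm3, which rose in both genotypes and by a larger factor in control cells. At an unadjusted p under 0.05 there were 787 genes (7.02%), 466 with a positive and 321 with a negative interaction, and 6 had an adjusted p under 0.1. Over all tested genes the median interaction was 0.023 and its SD 0.24 on the log2 scale. The precision was moderate: the 95% interval of an interaction reached 0.34 on either side of it in the median gene, a 1.27-fold difference, and 0.30 among the 7820 genes with a group mean of at least 5 FPKM. The smallest interaction that was called measured 0.83, so smaller differences between genotypes could be present without being called. Over the 11213 genes, the SR9009 changes in the 2 genotypes, which come from separate libraries, correlated with Pearson's r = 0.57 and Spearman's rho = 0.51, and 7531 genes (67.2%) moved in the same direction.

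**Figure D1:**
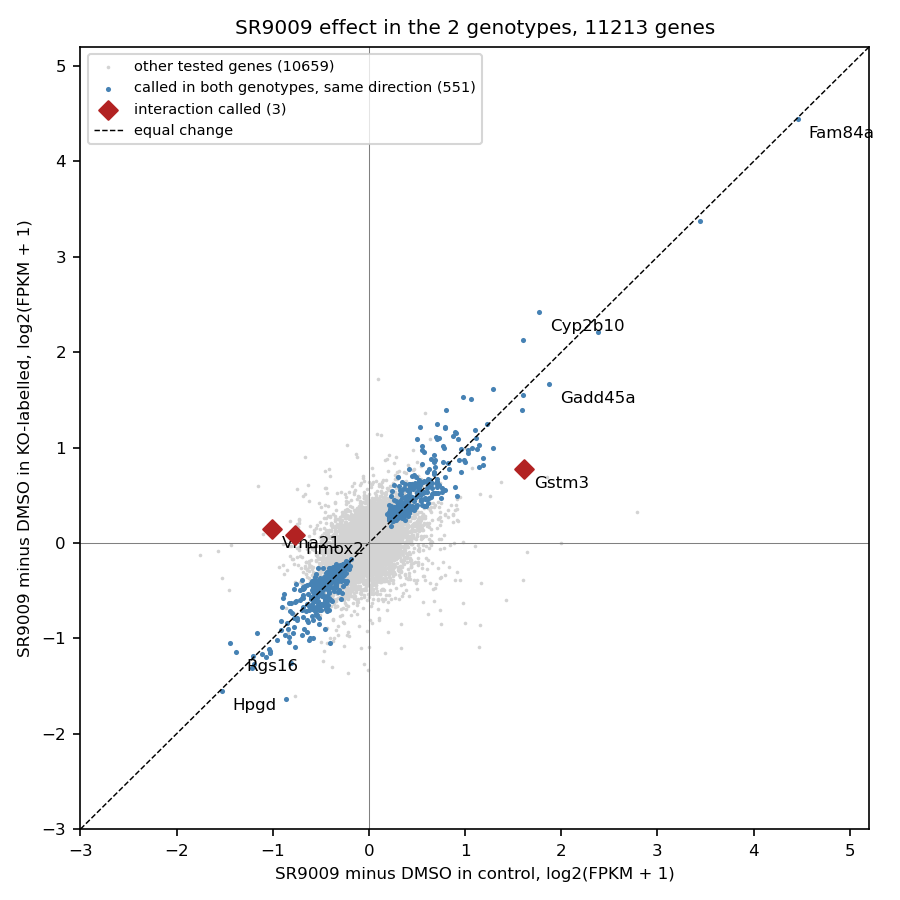
Log2 change with SR9009 in control cells (x axis) and in KO-labelled cells (y axis), log2(FPKM + 1), 1 point per tested gene (11213), each from 3 against 3 libraries per axis. The genes called in both genotypes lie along the dashed line of equal change, while Hmox2 and Vma21 lie left of zero on the x axis and near zero on the y axis, and Gstm3 lies below the line.

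The promoters of the 3 called genes are shown first, since the element that REV-ERB binds is known. Each window holds 250 bases before to 50 bases after an annotated start, from RefSeq on GRCm38.p6, another build than the mm9 coordinates of the expression table. Both strands were searched for the 7-base core of the ROR response element (TAGGTCA or TGGGTCA), for the antioxidant response element TGACNNNGC, which NRF2 binds, and for CCACG, part of the ER stress element. Capitals mark matches other than CCACG. The table lists several starts for Hmox2 (3) and Vma21 (2), and 1 of each is printed.

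Hmox2 promoter, chr16:4756696-4756995, plus strand: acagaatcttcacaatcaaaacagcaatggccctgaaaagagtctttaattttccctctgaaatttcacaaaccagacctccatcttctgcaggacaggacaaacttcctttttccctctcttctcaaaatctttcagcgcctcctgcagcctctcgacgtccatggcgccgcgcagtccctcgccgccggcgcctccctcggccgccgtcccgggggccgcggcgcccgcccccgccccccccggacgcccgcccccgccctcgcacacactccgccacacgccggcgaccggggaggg

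Vma21 promoter, chrX:71816508-71816807, plus strand: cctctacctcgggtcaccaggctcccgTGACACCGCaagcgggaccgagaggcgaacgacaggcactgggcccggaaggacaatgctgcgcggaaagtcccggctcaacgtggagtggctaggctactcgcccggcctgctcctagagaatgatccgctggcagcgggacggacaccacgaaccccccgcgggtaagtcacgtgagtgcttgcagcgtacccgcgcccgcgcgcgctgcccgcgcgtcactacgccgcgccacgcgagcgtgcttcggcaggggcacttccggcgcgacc

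Gstm3 promoter, chr3:107969125-107969424, minus strand: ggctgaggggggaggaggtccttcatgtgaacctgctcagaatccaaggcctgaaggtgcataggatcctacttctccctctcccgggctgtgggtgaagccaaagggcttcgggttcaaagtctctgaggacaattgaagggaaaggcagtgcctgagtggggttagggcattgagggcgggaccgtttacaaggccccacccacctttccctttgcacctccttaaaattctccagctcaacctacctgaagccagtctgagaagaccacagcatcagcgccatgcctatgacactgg

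None of these 3 windows, nor the other windows of Hmox2 and Vma21, held a ROR core. Of all 32851 promoter windows in the RefSeq table, 2.61% held TAGGTCA, 3.98% TGGGTCA, 12.4% TGACNNNGC and 32.8% CCACG. The Vma21 window held TGACNNNGC once, beginning 223 bases before the start, and CCACG 3 times. The Gstm3 and Hmox2 windows held neither. A missing match says only that these letters are not in the window.

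Hmox2 (ENSMUSG00000004070, mm9 chromosome 16, 4726361 to 4766742, plus strand) encodes the constitutive heme oxygenase, which opens the heme ring. Hmox2 stood at 40.3, 35.0 and 35.1 FPKM in control DMSO and 20.7, 21.5 and 21.2 in control SR9009, and at 33.4, 33.6 and 35.4 in KO-labelled DMSO and 35.2, 35.5 and 38.2 in KO-labelled SR9009. The 3 control SR9009 libraries lay below the other 9, which overlapped one another. SR9009 lowered Hmox2 in control cells to 0.574 of the DMSO level (log2 change -0.77, adjusted p = 3.02e-05), against 1.06 of it in KO-labelled cells (0.085, adjusted p = 0.482). The interaction was 0.86 with an SE of 0.0921 and a 95% interval of 0.66 to 1.06 (adjusted p = 0.00854). Loss of REV-ERB in DMSO left the level at 0.926 of control (-0.10, adjusted p = 0.296). The gene shares 16395 bases with 5730403B10Rik on the opposite strand, whose mean was 35.9 FPKM, and without a known strand setting their reads cannot be told apart. The interaction of 5730403B10Rik was -0.55 and not called (adjusted p = 0.864).

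Vma21 (ENSMUSG00000073131, mm9 chromosome X, 69061263 to 69085096, plus strand) encodes an assembly factor of the vacuolar proton pump. Vma21 stood at 6.60, 5.87 and 6.82 FPKM in control DMSO and 2.31, 2.39 and 3.44 in control SR9009, and at 7.77, 7.06 and 6.78 in KO-labelled DMSO and 7.87, 7.74 and 8.51 in KO-labelled SR9009. As with Hmox2, the control SR9009 libraries alone were low, and they did not overlap the other 9. The SR9009 level in control cells was 0.422 of the DMSO level (-1.01, adjusted p = 0.000256) and in KO-labelled cells 1.12 of it (0.14, adjusted p = 0.51). Its interaction was 1.15 (SE 0.161, 95% interval 0.80 to 1.5, adjusted p = 0.0414), and no other gene model overlaps it.

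Gstm3 (ENSMUSG00000004038, mm9 chromosome 3, 107745251 to 107772201, minus strand) encodes a mu-class glutathione transferase, an enzyme of detoxification. Gstm3 stood at 89.9, 116 and 105 FPKM in control DMSO and 322, 329 and 299 in control SR9009, and at 761, 759.5 and 734 in KO-labelled DMSO and 1275, 1308 and 1276 in KO-labelled SR9009. All 4 groups were separate, with both control groups below both KO-labelled groups and SR9009 above DMSO within each genotype. SR9009 raised Gstm3 3.06-fold in control cells (log2 change 1.61, adjusted p = 1.68e-07) and 1.71-fold in KO-labelled cells (0.77, adjusted p = 6.97e-05), and loss of REV-ERB in DMSO raised it 7.25-fold (2.85, adjusted p = 1.88e-10). The interaction was -0.83 (SE 0.108, 95% interval -1.07 to -0.60, adjusted p = 0.0307). Had both factors multiplied, KO-labelled SR9009 cells would hold 2298 FPKM; they held 1286 ± 19.0 (SD, n = 3), or 0.560 of it. In FPKM the rise was smaller in control cells, 213 against 535, so the sign of this interaction belongs to the log scale: without the log it was 321.9 FPKM (adjusted p = 0.00558). Gstm3 overlaps Gstm6 by 1417 bases on the same strand, and reads of the Gstm family can be split between copies.

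The 3 calls differed in how far they held when libraries or settings were changed. Leaving out each of the 12 libraries in turn, Hmox2 was called 10 times (adjusted p 0.0107 to 0.0552), Gstm3 3 times (0.0102 to 0.164) and Vma21 once (0.00477 to 0.195), all with the direction kept. Hmox2 lost its call without KO-labelled DMSO library 1 (adjusted p = 0.051) or 2 (0.0552), where no gene was called. Vma21 held its call only without control SR9009 library 3, and Gstm3 only without that library or control DMSO library 1 or 2. Quantile normalization gave an adjusted p of 0.0152 for Hmox2, 0.256 for Gstm3 and 0.0879 for Vma21, and scaling libraries to one median gave 0.0287, 0.0501 and 0.122. Without both of the shallowest libraries, control SR9009 library 1 and KO-labelled DMSO library 1, the values were 0.0938, 0.165 and 0.155.

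**Figure D2:**
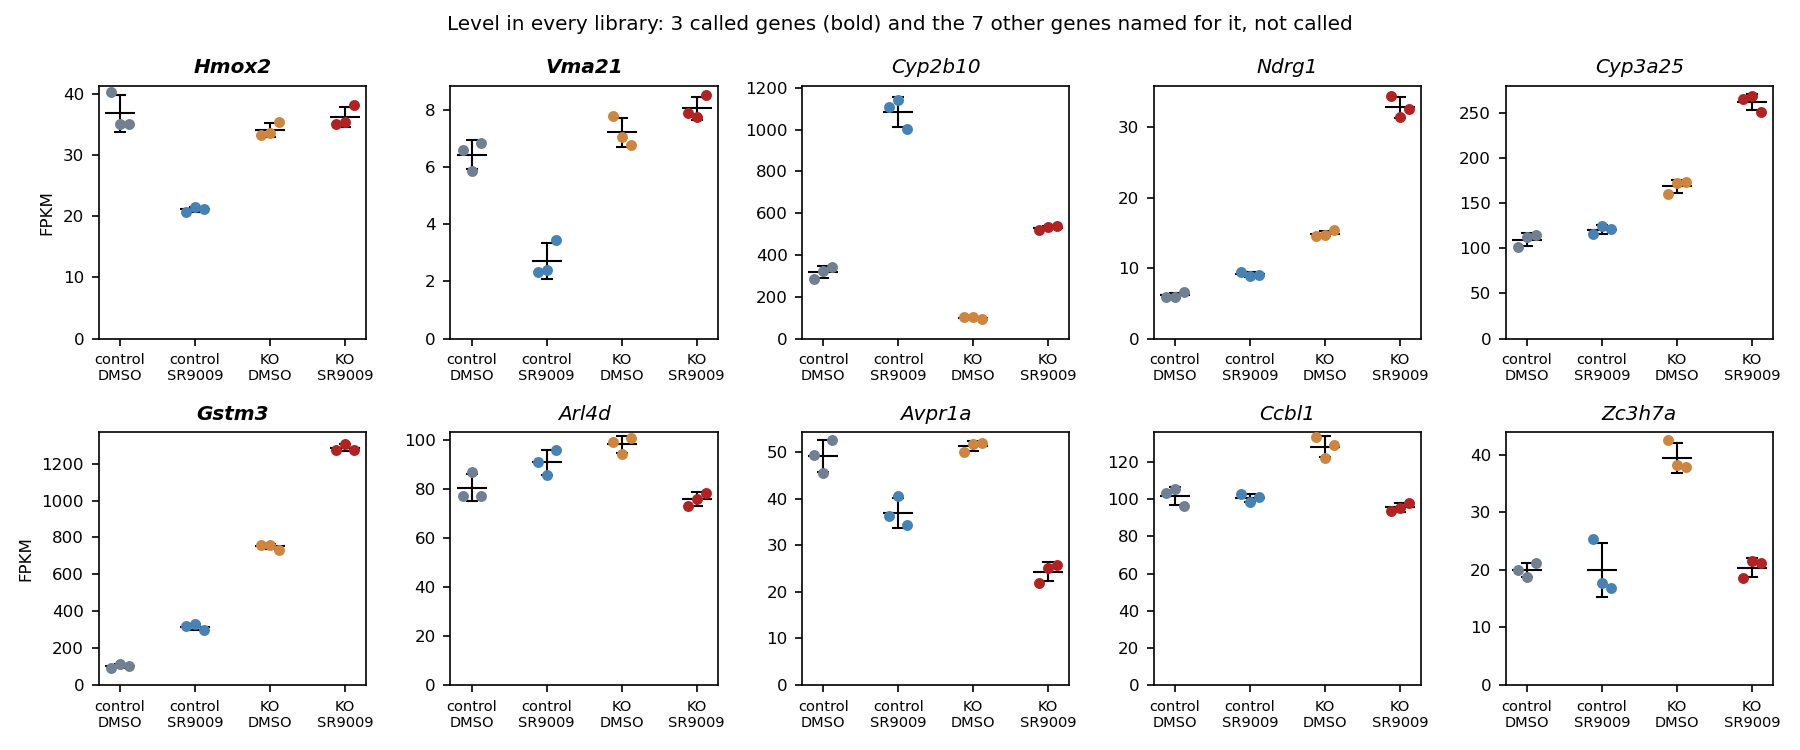
FPKM in every library (points, 3 per group) with the mean (bar) and SD (whiskers), for the 3 genes called for the interaction (bold) and the 7 further genes with the smallest p in their direction, which were not called. Hmox2 and Vma21 are low only in control SR9009, while Gstm3 rises at every step.

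To make up 5 genes in each direction, the 7 with the next smallest p among named genes of at least 5 FPKM were taken; none was called, and their values describe these libraries. Cyp2b10, a cytochrome P450 and the classic target of the xenobiotic receptor CAR, rose in both genotypes. Cyp2b10 stood at 286, 323 and 343 FPKM in control DMSO and 1107, 1142 and 1004 in control SR9009, and at 101, 102 and 92.0 in KO-labelled DMSO and 521, 533 and 539 in KO-labelled SR9009. Its groups did not overlap, and the fold was 3.42 in control and 5.40 in KO-labelled cells, starting there from a level lowered to 0.310 of control. The interaction was 0.65 (0.43 to 0.87, adjusted p = 0.0991); in FPKM its sign turned, to -334.4 (adjusted p = 0.0285), and without control DMSO library 1 the log2 value was called (0.72, adjusted p = 0.0198).

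Ndrg1, a stress-induced gene, stood at 5.90, 5.93 and 6.58 FPKM in control DMSO and 9.49, 8.80 and 9.01 in control SR9009, and at 14.6, 14.7 and 15.3 in KO-labelled DMSO and 34.4, 31.4 and 32.6 in KO-labelled SR9009. It rose 1.48-fold and 2.20-fold, with an interaction of 0.59 (adjusted p = 0.0991), which was called with a pseudocount of 5 (adjusted p = 0.0219). Cyp3a25, a P450 of the Cyp3a family, rose in KO-labelled cells from 169 ± 7.34 to 262 ± 9.34 FPKM (SD, n = 3; log2 change 0.63, adjusted p = 4.67e-05) and in control cells went from 109.6 ± 6.97 to 121 ± 4.66 (adjusted p = 0.194); its interaction was 0.49 (adjusted p = 0.123). The mean of each of these 3 positive genes was higher with SR9009 in both genotypes, by a larger factor in KO-labelled cells.

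The 4 negative genes fell in KO-labelled cells. Arl4d, a small GTPase of the ARF family, stood at 77.4, 87.1 and 77.4 FPKM in control DMSO and 91.1, 85.9 and 96 in control SR9009, and at 99.4, 94.6 and 101 in KO-labelled DMSO and 73.1, 76.2 and 78.7 in KO-labelled SR9009. SR9009 lowered it in KO-labelled cells (-0.37, adjusted p = 0.00319) and left it uncalled in control cells (0.17, adjusted p = 0.124), with an interaction of -0.54 (adjusted p = 0.0991). Avpr1a, the hepatic vasopressin receptor, stood at 49.3, 45.5 and 52.6 FPKM in control DMSO and 36.2, 40.5 and 34.3 in control SR9009, and at 50, 51.8 and 51.9 in KO-labelled DMSO and 22, 25.1 and 25.8 in KO-labelled SR9009. It fell in both genotypes, to 0.753 of the DMSO level in control and 0.474 in KO-labelled cells (interaction -0.65, adjusted p = 0.124). Ccbl1, a transaminase of kynurenine, was at 102 ± 4.75 and 101 ± 1.99 FPKM (SD, n = 3) in control cells with DMSO and SR9009, and 128 ± 5.56 and 95.7 ± 2.43 in KO-labelled cells, and its fall was called in KO-labelled cells (-0.42, adjusted p = 0.000401; interaction -0.41, adjusted p = 0.138). Zc3h7a, an RNA-binding zinc finger protein, stood at 20.0, 18.8 and 21.2 FPKM in control DMSO and 25.4, 17.7 and 16.9 in control SR9009, and at 42.5, 38.2 and 37.8 in KO-labelled DMSO and 18.5, 21.4 and 21.2 in KO-labelled SR9009, with an interaction of -0.90 (adjusted p = 0.279). Its 3 KO-labelled DMSO libraries lay above the other 9. It overlaps a miRNA model on the opposite strand by 57 bases. That model had a mean of 5450 FPKM, against 25 for Zc3h7a, and its part in the Zc3h7a values was not tested. On the FPKM scale without a log, Ndrg1, Cyp3a25, Arl4d, Ccbl1 and Zc3h7a were among the 24 genes called; Avpr1a was not.

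SR9009 changed 924 genes in control cells (8.24%: 414 higher, 510 lower) and 1107 in KO-labelled cells (9.87%: 596 higher, 511 lower). Of these, 552 (4.92% of those tested) were called in both, which is 59.7% of the control calls and 49.9% of the KO-labelled calls. All 552 moved in the same direction, 267 higher and 285 lower. Their median absolute change was 0.46 in control and 0.48 in KO-labelled cells, and their median absolute interaction was 0.088, against 0.12 for all tested genes. For 483 of them (87.5%) the 95% interval of the interaction lay inside 1.5-fold either way, and for 546 (98.9%) inside 2-fold. Over all tested genes 68.7% lay inside 1.5-fold. Calls in both genotypes favour genes of small spread, which have narrow intervals in the same fit. Nothing is therefore read from the distance of these shares and medians to those of all tested genes. These 483 genes, 230 higher and 253 lower, are called alike below. For the other 69 the interval reached past 1.5-fold, and 1 of them, Gstm3, was called for the interaction.

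The count of 483 moved with single libraries: it was 310, 311 and 300 without control DMSO library 1, 2 or 3, and 308 without KO-labelled SR9009 library 2. The 552 fell to 363 without control DMSO library 3. The control calls fell to 532, 545 and 530 without control DMSO library 1, 2 or 3, and to 609 without both of the shallowest libraries; the KO-labelled calls fell to 711 without KO-labelled DMSO library 3 and to 603 or 672 without KO-labelled SR9009 library 1 or 2.

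Fam84a had the largest alike rise. Fam84a stood at 0.193, 0.212 and 0.317 FPKM in control DMSO and 33.5, 23.5 and 22.8 in control SR9009, and at 0.415, 0.548 and 0.260 in KO-labelled DMSO and 31.8, 30.1 and 27.0 in KO-labelled SR9009. All 6 SR9009 libraries were above 20 FPKM and all 6 DMSO libraries below 1 FPKM, with log2 changes of 4.46 in control cells (adjusted p = 4.99e-09) and 4.44 in KO-labelled cells (adjusted p = 2.58e-09) and an interaction of -0.012 (-0.44 to 0.41). Because the DMSO level was near 0, log2(FPKM + 1) understates the change and compares the genotypes by their SR9009 levels. As ratios of mean FPKM the rises were 111-fold in control and 72.7-fold in KO-labelled cells, and the observed KO-labelled SR9009 level was 0.657 of that expected. Alike thus refers here to log2(FPKM + 1). Gadd45a, a gene induced by growth arrest and DNA damage, came next among genes with a name; the unnamed model B430219N15Rik, with log2 changes of 3.44 and 3.38, was passed over by the rule. Gadd45a stood at 104, 121 and 112 FPKM in control DMSO and 413, 407 and 423 in control SR9009, and at 66.7, 63.8 and 54.9 in KO-labelled DMSO and 207, 201 and 185 in KO-labelled SR9009. Every SR9009 library exceeded every DMSO library of either genotype, with folds of 3.69 and 3.20 and an interaction of -0.21 (-0.45 to 0.027, adjusted p = 0.73). In FPKM the rise was 302 in control and 136 in KO-labelled cells, a difference called on that scale.

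Slc25a37, mitoferrin, which carries iron into mitochondria, stood at 9.20, 7.89 and 9.12 FPKM in control DMSO and 22.3, 19.8 and 17.6 in control SR9009, and at 10.4, 9.66 and 9.04 in KO-labelled DMSO and 24.3, 24.1 and 21.5 in KO-labelled SR9009. The rises were 2.28-fold and 2.40-fold, and the interaction interval ran from -0.21 to 0.38. Akr1b7, an aldose reductase-like enzyme, rose 2.68-fold and 2.92-fold, from 4.15 ± 0.653 FPKM (SD, n = 3) in control cells with DMSO and 2.46 ± 0.361 in KO-labelled cells with DMSO. Kcnk5, a potassium channel, rose 2.42-fold and 2.44-fold. Vps37b, a subunit of the ESCRT sorting complex, rose 2.29-fold and 2.10-fold. Pla2g12a, a secreted phospholipase, and Id3, an inhibitor of basic helix-loop-helix factors, had log2 changes of 1.13 and 1.07 in control cells and 0.99 and 0.99 in KO-labelled cells. Of these 8 genes with the largest alike rises, the interaction lay between -0.21 and 0.083.

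Among the alike falls, Hpgd, the dehydrogenase that inactivates prostaglandins, had the largest. Hpgd stood at 68.1, 74.5 and 72.4 FPKM in control DMSO and 22.7, 24.9 and 25.2 in control SR9009, and at 49.5, 60.9 and 56.3 in KO-labelled DMSO and 17.0, 17.8 and 19.9 in KO-labelled SR9009. The SR9009 groups lay below both DMSO groups, at 0.339 and 0.328 of the DMSO level (interaction -0.032, -0.29 to 0.22). Rgs16, a brake on G protein signalling, stood at 73.1, 87.8 and 79.1 FPKM in control DMSO and 26.3, 31.7 and 32.2 in control SR9009, and at 130.0, 145 and 143 in KO-labelled DMSO and 60.6, 57.6 and 69.9 in KO-labelled SR9009. It fell to 0.376 and 0.449 of DMSO, with an interaction of 0.24 (-0.059 to 0.54). Erbb3, a receptor of the EGF receptor family, stood at 25.8, 25.5 and 25.6 FPKM in control DMSO and 11, 12.1 and 8.77 in control SR9009, and at 30.3, 32.3 and 29.2 in KO-labelled DMSO and 10.6, 13.0 and 15.4 in KO-labelled SR9009. Its changes of -1.21 in control cells (adjusted p = 0.000123) and -1.19 in KO-labelled cells (adjusted p = 0.000107) differed by 0.02 (-0.36 to 0.40).

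Fkbp5, a co-chaperone of the glucocorticoid receptor and a standard glucocorticoid-induced gene, went from 75.2 ± 2.70 to 41.9 ± 2.92 FPKM in control and from 70.9 ± 3.33 to 34.1 ± 3.65 in KO-labelled cells (SD, n = 3). Scara5, a scavenger receptor that binds ferritin, fell to 0.413 and 0.418 of DMSO, and Cab39l, a partner of the kinase LKB1, to 0.484 and 0.445. Slc7a2, a transporter of cationic amino acids, fell to 0.470 and 0.440. Derl3, a derlin of ER-associated degradation, fell to 0.377 and 0.440, from means of 3.58 and 9.07 FPKM. The interactions of these 8 genes lay between -0.21 and 0.24.

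**Figure D3:**
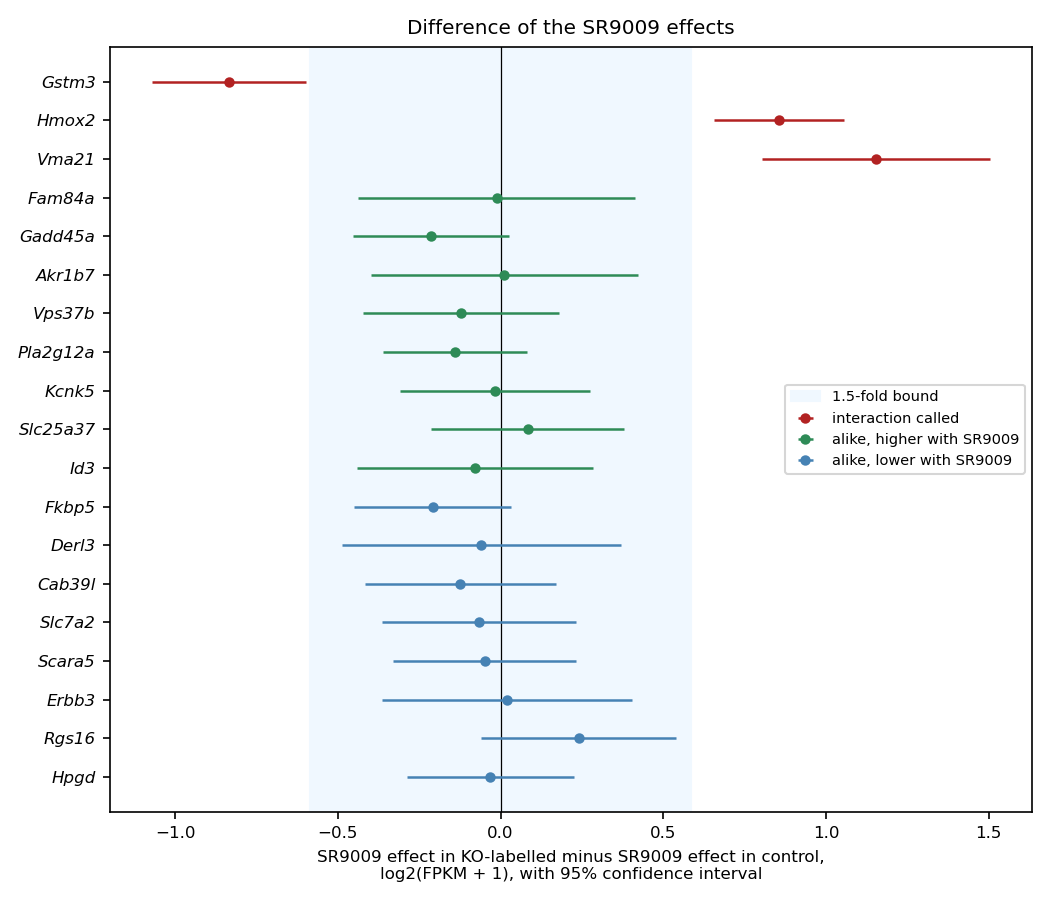
Interaction (SR9009 effect in KO-labelled minus that in control, log2(FPKM + 1)) with its 95% confidence interval for the 3 called genes and the 16 named alike genes, 12 libraries. The shaded band is 1.5-fold either way: the intervals of the alike genes lie inside it by definition, and those of the 3 called genes lie outside it.

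Additivity with REV-ERB loss was asked of the alike genes that also differed between genotypes in DMSO, where 2240 of all tested genes were called (20%), 1307 higher (11.7%) and 933 lower (8.32%). Of the 483 alike genes, 233 (48.2%) were called there. These genes hold both changes at once, and on the log scale they add: the KO-labelled SR9009 level over the level expected if the factors multiply had a median of 1.03 and ran from 0.792 to 1.28, limits that the 1.5-fold bound itself keeps close. SR9009 and REV-ERB loss pointed the same way in 57 of the 233, both higher in 23 and both lower in 34, and opposite ways in 176, with SR9009 raising and loss lowering 80 and the reverse in 96. These 2 contrasts share the DMSO libraries, so nothing is read from the balance of these directions. The 233 were 129, 135 and 123 without control DMSO library 1, 2 or 3, 150 and 136 without KO-labelled DMSO library 2 or 3, 149 without KO-labelled SR9009 library 2, 150 without both of the shallowest libraries, and 146 with no filter on low values.

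Where both raised a gene, the KO-labelled SR9009 libraries were the highest. Cyp2a5 stood at 331, 363 and 329 FPKM in control DMSO and 398, 405 and 395 in control SR9009, and at 2244, 2285 and 2288 in KO-labelled DMSO and 2968, 2970.1 and 3005 in KO-labelled SR9009. Cyp2a5, a P450 that hydroxylates coumarin, rose 6.66-fold with REV-ERB loss and a further 1.31-fold with SR9009, against 1.17-fold in control cells; 2661 FPKM was expected and 2981 ± 20.8 observed (SD, n = 3). G6pc, the phosphatase subunit that frees glucose for release, stood at 26.8, 30.7 and 27.0 FPKM in control DMSO and 50.5, 63.6 and 47.9 in control SR9009, and at 80.1, 79.3 and 77.2 in KO-labelled DMSO and 186, 172 and 172 in KO-labelled SR9009. Its SR9009 rises were 1.92-fold and 2.24-fold on top of 2.80-fold with loss, with 151 FPKM expected in KO-labelled SR9009 cells. Cyp2c55 and Dhrs9, a P450 and a retinol dehydrogenase, reached 23.2 ± 1.08 and 14.4 ± 1.03 FPKM (SD, n = 3) with 21.4 and 15.2 expected. In FPKM units the SR9009 rise of Cyp2a5 was 58.3 in control and 709 in KO-labelled cells, and Cyp2a5, G6pc and Cyp2c55 were called for the interaction on that scale: additive here means equal factors, not equal increments.

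Where SR9009 raised a gene that loss lowered, the mean of KO-labelled SR9009 cells lay between the DMSO means or above them. Tgm2, tissue transglutaminase, stood at 955, 920.2 and 1004 FPKM in control DMSO and 1594, 1481 and 1311 in control SR9009, and at 373, 367 and 344 in KO-labelled DMSO and 567, 575 and 542 in KO-labelled SR9009. It rose 1.52-fold and 1.55-fold, and loss lowered it to 0.376 of control; 550.3 FPKM was expected and 561 observed. Alpl, an alkaline phosphatase, rose 1.46-fold and 1.67-fold after loss had lowered it to 0.170 of control. Gsta1, an alpha-class glutathione transferase whose near copies make its value uncertain, rose 1.57-fold and 1.85-fold, with 236 FPKM expected and 277 observed. Gadd45a, above, is of this kind.

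Tdo2, tryptophan dioxygenase, was raised by loss and lowered by SR9009: it stood at 187, 166 and 175 FPKM in control DMSO and 109.6, 116 and 112 in control SR9009, and at 353, 385 and 394 in KO-labelled DMSO and 259.8, 237 and 282 in KO-labelled SR9009. The fall was to 0.640 and 0.689 of DMSO, and KO-labelled SR9009 cells stayed above control DMSO cells. Rgs16, Scara5 and Derl3 belong to the same class. Id2, like Id3 an inhibitor of basic helix-loop-helix factors, was lowered by both: it stood at 35.8, 36.8 and 40.3 FPKM in control DMSO and 19.0, 20.6 and 21.5 in control SR9009, and at 17.5, 19.7 and 17.7 in KO-labelled DMSO and 10.1, 8.83 and 10.4 in KO-labelled SR9009. Its falls were to 0.541 and 0.534 of DMSO and, with loss, to 0.486 of control, and 9.90 FPKM was expected where 9.78 was observed. Slc10a2, a sodium-dependent bile acid transporter, went the same way, to 7.56 ± 1.74 FPKM (SD, n = 3) from 34.1 ± 1.21 in control DMSO, as did Marveld1 and Slc7a2.

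**Figure D4:**
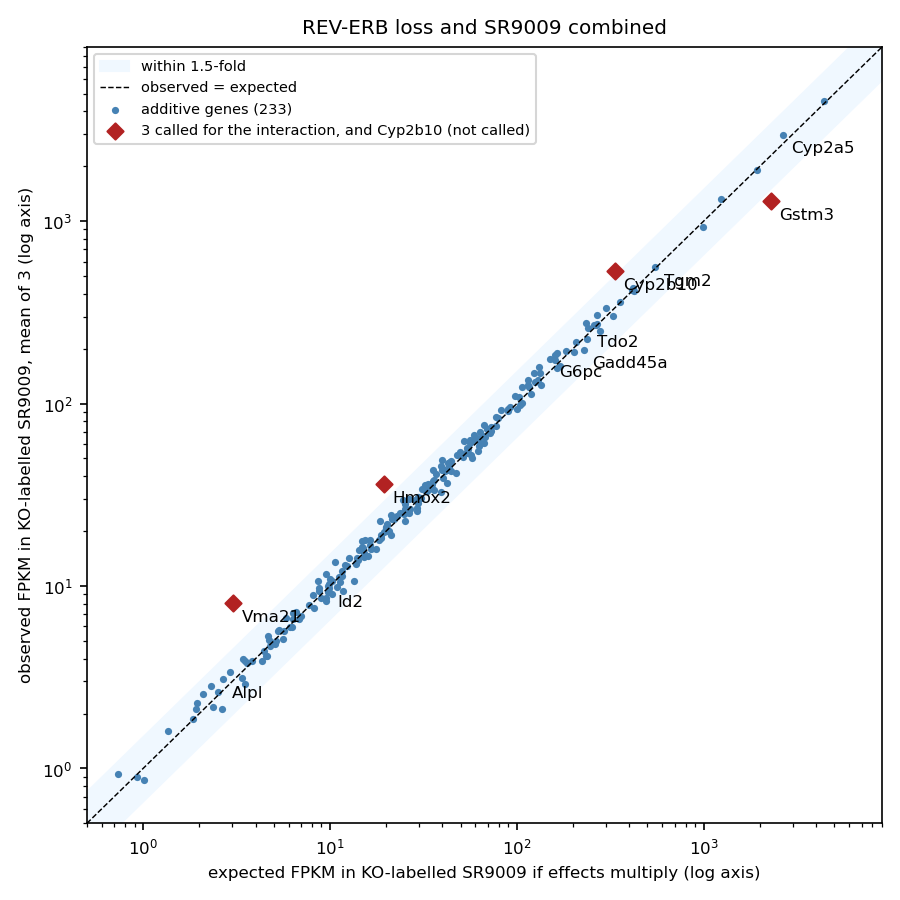
Observed mean FPKM in KO-labelled SR9009 cells (3 libraries) against the FPKM expected if the SR9009 and REV-ERB loss factors multiply, log axes, for the 233 alike genes called for loss in DMSO. The shaded band is 1.5-fold; Gstm3 lies under it and Hmox2, Vma21 and Cyp2b10 lie over it.

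The genes that REV-ERB is known to repress give the most direct view of the receptor. Of 16 such genes listed, 14 were tested. In KO-labelled DMSO cells their median change was 0.67, against 0.035 for all tested genes. No interaction was called for any of them; 2 had a positive and 1 a negative interaction at an unadjusted p under 0.05, and the median interaction was 0.035, against 0.023 for all tested genes. SR9009 was called higher for 3 and lower for 1 in control cells, and higher for 6 and lower for 2 in KO-labelled cells; 4 were alike. Over all tested genes 3.69% were higher and 4.55% lower with SR9009 in control cells, 5.32% and 4.56% in KO-labelled cells, and 4.16% had a positive and 2.86% a negative interaction at an unadjusted p under 0.05. The table holds promoters for 11 of the 14; 4 of these genes hold TAGGTCA (Arntl, Nfil3, G6pc and Plin2) and 1 holds TGGGTCA (Insig2), and the windows with a core are printed. All 5 were called higher with loss of REV-ERB, but so were Npas2 (log2 change 2.82), Pck1 (0.85), Clock (0.67) and Cry1 (0.50), whose windows hold neither core, so nothing is read from the match. Capitals mark the ROR core on either strand and, in G6pc, 1 antioxidant element.

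Arntl promoter, chr7:113207261-113207560, plus strand: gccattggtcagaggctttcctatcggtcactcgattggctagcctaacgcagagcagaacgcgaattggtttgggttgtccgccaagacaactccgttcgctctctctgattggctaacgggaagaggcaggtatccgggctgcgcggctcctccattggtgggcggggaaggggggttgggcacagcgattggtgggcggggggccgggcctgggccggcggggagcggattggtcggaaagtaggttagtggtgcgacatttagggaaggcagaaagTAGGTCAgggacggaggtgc

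Nfil3 promoter, chr13:52980990-52981289, minus strand: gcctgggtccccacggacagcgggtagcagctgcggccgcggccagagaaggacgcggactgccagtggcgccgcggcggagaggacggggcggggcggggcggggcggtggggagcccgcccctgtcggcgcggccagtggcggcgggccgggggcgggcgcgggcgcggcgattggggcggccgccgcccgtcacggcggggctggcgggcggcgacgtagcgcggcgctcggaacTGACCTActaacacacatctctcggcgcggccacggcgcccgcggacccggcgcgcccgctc

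G6pc promoter, chr11:101367466-101367765, plus strand: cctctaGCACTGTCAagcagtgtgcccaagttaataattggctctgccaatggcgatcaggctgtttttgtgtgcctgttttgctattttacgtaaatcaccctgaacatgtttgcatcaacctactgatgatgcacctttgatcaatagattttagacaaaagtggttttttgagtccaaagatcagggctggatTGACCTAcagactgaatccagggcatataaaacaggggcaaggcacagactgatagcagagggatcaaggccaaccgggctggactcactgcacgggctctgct

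Plin2 promoter, chr4:86670010-86670309, minus strand: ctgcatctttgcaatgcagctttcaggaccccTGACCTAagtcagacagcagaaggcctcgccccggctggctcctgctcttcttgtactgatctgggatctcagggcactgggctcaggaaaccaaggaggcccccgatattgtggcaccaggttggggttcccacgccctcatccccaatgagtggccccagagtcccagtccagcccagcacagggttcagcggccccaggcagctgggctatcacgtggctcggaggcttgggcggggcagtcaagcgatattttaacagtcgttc

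Insig2 promoter, chr1:121327975-121328274, minus strand: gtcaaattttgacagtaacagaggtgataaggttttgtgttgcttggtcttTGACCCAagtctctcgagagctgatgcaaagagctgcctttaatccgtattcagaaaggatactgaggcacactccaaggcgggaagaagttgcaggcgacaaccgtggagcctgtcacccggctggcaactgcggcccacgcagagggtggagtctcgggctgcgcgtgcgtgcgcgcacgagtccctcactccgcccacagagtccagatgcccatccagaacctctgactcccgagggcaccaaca

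Arntl and Npas2, the clock activators, were almost silent in control cells and had no SR9009 call in either genotype. Arntl stood at 0.178, 0.159 and 0.306 FPKM in control DMSO and 0.391, 0.146 and 0.117 in control SR9009, and at 6.30, 6.33 and 6.85 in KO-labelled DMSO and 5.86, 4.99 and 5.37 in KO-labelled SR9009. The interaction of Arntl was -0.23 (-0.57 to 0.12, adjusted p = 0.829). Npas2 stood at 0.0485, 0.141 and 0.0711 FPKM in control DMSO and 0.0159, 0.255 and 0.0340 in control SR9009, and at 6.80, 5.76 and 7.47 in KO-labelled DMSO and 6.92, 6.23 and 7.30 in KO-labelled SR9009. Its interaction was 0.016 (-0.35 to 0.38). With control levels this near 0, a further fall with SR9009 in control cells was hardly measurable, so these genes cannot show the repression that an agonist would be asked for.

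Targets expressed in both genotypes could show it, but not every listed target was higher with loss in DMSO. Those called higher with loss include the 9 named above. Cidec was called lower there (log2 change -0.39, adjusted p = 0.00346). Fabp5 (-0.22), Elovl3 (-0.11) and Elovl5 (-0.16) were not called for loss, so their repression by REV-ERB was not seen in these cells. Nfil3, a clock repressor, stood at 26.3, 23.2 and 24.7 FPKM in control DMSO and 27.4, 29.5 and 27.0 in control SR9009, and at 48.7, 47.4 and 45.8 in KO-labelled DMSO and 55.9, 54.5 and 58.6 in KO-labelled SR9009. It was called higher with SR9009 in KO-labelled cells (0.25, adjusted p = 0.0248) and not in control cells (0.17, adjusted p = 0.126), with an interaction of 0.078 (-0.11 to 0.27). Insig2, which holds back SREBP processing, rose with SR9009 in both, from 74.2 ± 6.29 to 98.8 ± 8.03 FPKM in control and from 246 ± 17.0 to 300.2 ± 19.5 in KO-labelled cells (SD, n = 3). Elovl3, a fatty acid elongase, rose in both (0.33 and 0.29), as did G6pc. Insig2, Elovl3 and G6pc were among the 4 alike members.

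Fabp5, a fatty acid binding protein, had the largest interaction of the list: it stood at 22.1, 27.6 and 24.4 FPKM in control DMSO and 19.8, 22.8 and 27.5 in control SR9009, and at 21.1, 21.8 and 20.3 in KO-labelled DMSO and 39.0, 34.8 and 27.0 in KO-labelled SR9009. It rose in KO-labelled cells (0.63, adjusted p = 0.0116) and not in control cells (-0.084, adjusted p = 0.786), and the interaction of 0.72 was not called (adjusted p = 0.477). Plin2, a lipid droplet coat protein, rose in KO-labelled cells from 651 ± 16.5 to 791 ± 30.5 FPKM (adjusted p = 0.0123; interaction 0.20, adjusted p = 0.707). Cidec, of the same organelle, fell there from 31.0 ± 2.85 to 23.1 ± 0.487 (adjusted p = 0.00609; interaction -0.28, adjusted p = 0.663). Pck1, the gluconeogenic carboxykinase, was at 18.3 ± 0.547 and 17.3 ± 2.30 FPKM (SD, n = 3) in control cells with DMSO and SR9009, and 33.6 ± 2.07 and 33.0 ± 4.35 in KO-labelled cells, and neither SR9009 change was called. Cry1, Clock and Elovl5 likewise had no SR9009 call, with interactions of -0.0084, 0.062 and 0.026.

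Of the 22 clock genes tested, which share Arntl, Npas2, Clock, Cry1 and Nfil3, among others, with the preceding list, none was called for the interaction and the median was 0.057; 1 had a positive and 2 a negative interaction at an unadjusted p under 0.05. Per1, an E-box repressor, had the largest negative value: it stood at 25.4, 27.0 and 29.4 FPKM in control DMSO and 33.4, 29.2 and 25.9 in control SR9009, and at 22.6, 23.3 and 23.4 in KO-labelled DMSO and 17.8, 19.5 and 16.4 in KO-labelled SR9009. SR9009 lowered it in KO-labelled cells (-0.36, adjusted p = 0.0302) with 0.10 in control cells (adjusted p = 0.574), and the interaction was -0.46 (adjusted p = 0.549). Cry2 fell in both (-0.33 and -0.41) and Bhlhe40 rose in both (0.28 and 0.33) and both were alike. Tef and Hlf, PAR bZIP output factors, fell by the test in control cells (-0.28, adjusted p = 0.0454; -0.55, adjusted p = 0.0412) and stood at -0.16 and -0.093 in KO-labelled cells, with interactions of 0.12 and 0.45, not called. Per2 (interaction -0.25), Per3 (0.12), Dbp (-0.18), Bhlhe41 (-0.36), Rora (0.11), Csnk1d (0.084), Csnk1e (-0.23) and Ciart, listed as Gm129 (0.24), had no SR9009 call in either genotype.

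**Figure D5:**
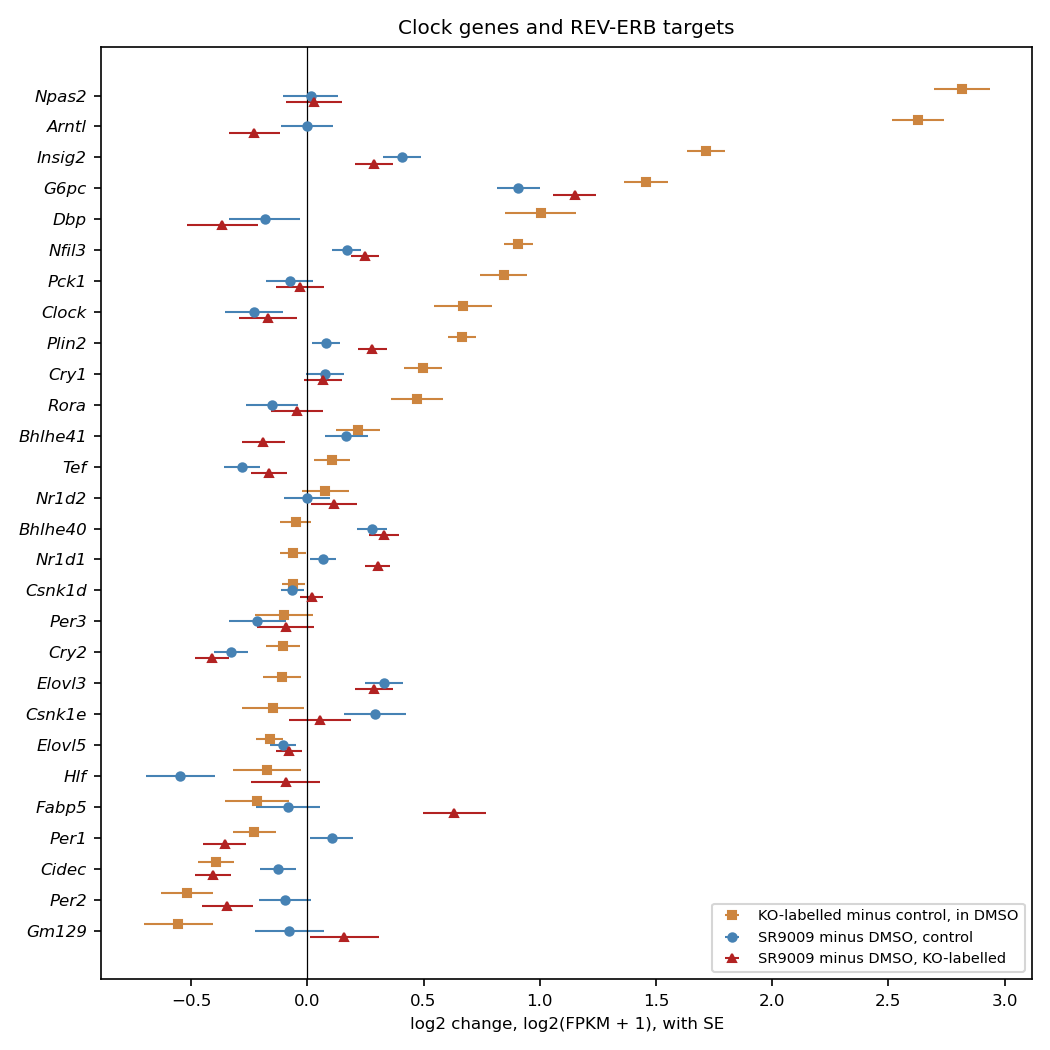
Log2 change on log2(FPKM + 1), with SE, for clock genes and REV-ERB targets, 3 against 3 libraries per contrast: KO-labelled against control in DMSO (squares), SR9009 in control cells (circles) and SR9009 in KO-labelled cells (triangles). Npas2, Arntl, Insig2 and G6pc changed most with genotype, while the SR9009 changes of most genes lie close together in the genotypes.

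Other pathways were read through lists of their genes. Counts of positive and negative interactions below are at an unadjusted p under 0.05, 4.16% and 2.86% over all tested genes. Counts of interactions above or below 0 use the sign alone, and 6238 of all 11213 were above 0. Counts of genes that rose or fell are of SR9009 calls. Of all tested genes, 483 were alike. ER chaperones, which fold secreted proteins, fell with SR9009 in both genotypes: of 21 tested, 13 fell in control and 11 in KO-labelled cells, the 11 being shared, none rose, and 10 were alike. Over all genes 4.55% fell in control cells and 4.56% in KO-labelled cells. The median change was -0.39 in control and -0.35 in KO-labelled cells, the median interaction 0.066, and 1 interaction was positive and 0 negative. Herpud1, part of the ER degradation machinery, stood at 63.7, 62.7 and 58.6 FPKM in control DMSO and 39.0, 39.8 and 29.1 in control SR9009, and at 68.5, 84.9 and 92.8 in KO-labelled DMSO and 35.0, 38.7 and 39.8 in KO-labelled SR9009. Its falls were to 0.583 and 0.461 of DMSO (interaction -0.31, -0.70 to 0.07). Pdia4, a disulfide isomerase, fell in both (-0.57 and -0.38). Canx, calnexin, went from 77.0 ± 2.68 to 67.5 ± 2.83 FPKM in control and from 84.8 ± 4.03 to 84.4 ± 3.75 in KO-labelled cells (SD, n = 3), with neither called and an interaction of 0.18 (adjusted p = 0.711). Loss of REV-ERB in DMSO moved the list the other way, with a median of 0.39.

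Ribosome biogenesis genes, listed with Myc, had rises and no falls. Of 21 tested, 12 rose in control and 11 in KO-labelled cells, 10 in both, none fell, and 10 were alike; over all genes 3.69% rose in control and 5.32% in KO-labelled cells. The medians were 0.26 and 0.29 and the median interaction -0.0072. Nop58, a core protein of small nucleolar particles, stood at 42.6, 42.6 and 42.6 FPKM in control DMSO and 50.4, 52.6 and 50.9 in control SR9009, and at 37.8, 36.9 and 35.2 in KO-labelled DMSO and 49.7, 47.2 and 46.3 in KO-labelled SR9009, with an interaction of 0.11 (-0.045 to 0.27). Npm1, nucleophosmin, rose 1.16-fold and 1.32-fold (interaction 0.19, adjusted p = 0.673), and Gnl3, nucleostemin, had changes of 0.084 in control cells (adjusted p = 0.428) and 0.27 in KO-labelled cells (adjusted p = 0.0103). Immediate early genes behaved likewise: of 15 tested, 6 rose in control and 7 in KO-labelled cells, 6 in both and alike, with a median interaction of 0.023. Fosl2 was the member called only in KO-labelled cells (0.23, adjusted p = 0.287; 0.60, adjusted p = 0.00663; interaction 0.37, adjusted p = 0.711).

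The xenobiotic response list holds the detoxifying enzymes and transporters under CAR and PXR. Of 27 tested, 14 rose in control (over all genes 3.69%) and 13 in KO-labelled cells (over all genes 5.32%), 11 in both and 9 of these alike. Gstm3 was the called interaction; 3 were positive and 3 negative at an unadjusted p under 0.05, and the median was 0.0078, whose sign changed with the scaling. Cyp2b10, Cyp3a25 and Cyp2a5, described above, had the positive ones. The negative ones beside Gstm3, named after their values were seen, were Alas1, the rate-limiting enzyme of heme synthesis, and Nr1i2, the receptor PXR. Alas1 went from 165 ± 31.3 to 307 ± 41.3 FPKM in control cells (log2 change 0.90, adjusted p = 0.0057) and from 220.5 ± 30.7 to 282 ± 46.1 in KO-labelled cells (0.35, adjusted p = 0.224; SD, n = 3), with an interaction of -0.55 (adjusted p = 0.682). Nr1i2 rose in control cells (0.50, adjusted p = 0.00602) with 0.18 in KO-labelled cells (adjusted p = 0.272; interaction -0.32, adjusted p = 0.673). Cyp2a, Cyp2b, Cyp2c, Cyp3a and Gstm genes are families of near copies, and their single values are uncertain.

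Targets of NRF2, the factor of the oxidant response, rose in part in both genotypes; whether the counts differ between genotypes was not tested. Of 24 tested, 6 rose in control (over all genes 3.69%) and 11 in KO-labelled cells (over all genes 5.32%), 5 of them in both. A positive interaction was seen for 5 and a negative one for 1 (Gstm3). Of the 24 interactions, 18 were above 0, with a median of 0.11. Over all genes 6238 of 11213 were above 0. Hmox1, the inducible heme oxygenase, stood at 111, 94.0 and 90.3 FPKM in control DMSO and 151, 123 and 155 in control SR9009, and at 56.6, 48.9 and 54.2 in KO-labelled DMSO and 135, 127 and 112 in KO-labelled SR9009. It rose 1.45-fold in control and 2.35-fold in KO-labelled cells, an interaction of 0.68 (0.35 to 1.02) that was not called (adjusted p = 0.324); the SR9009 groups overlapped and the DMSO groups did not. Hmox1 and Hmox2, the inducible and constitutive enzymes of the same reaction, thus both had positive interactions, Hmox1 through a larger rise in KO-labelled cells and Hmox2 through a fall in control cells. Nqo1, a quinone reductase, stood at 15.9, 16.1 and 15.7 FPKM in control DMSO and 16.3, 16.9 and 17.8 in control SR9009, and at 18.2, 18.7 and 18.8 in KO-labelled DMSO and 26.0, 25.0 and 23.1 in KO-labelled SR9009, with a rise called in KO-labelled cells (0.39, adjusted p = 0.00187; interaction 0.30, adjusted p = 0.555). Gclc, the rate-limiting ligase of glutathione synthesis, had no call in either genotype (-0.21 and 0.13; interaction 0.34, adjusted p = 0.549).

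Cholesterol synthesis genes under SREBP2 had 21 of 24 interactions above 0, with a median of 0.13, against 6238 of 11213 over all genes. At an unadjusted p under 0.05, 5 were positive and 0 negative, and none was called. SR9009 raised 3 and lowered 2 in control cells and raised 6 and lowered 0 in KO-labelled cells. Over all genes 3.69% rose and 4.55% fell in control cells, and 5.32% and 4.56% in KO-labelled cells. Whether the counts of this list differ between genotypes was not tested. Loss in DMSO had a median of -0.20 in it. Stard4, a sterol carrier, stood at 23.8, 23.7 and 25.2 FPKM in control DMSO and 16.6, 20.7 and 17.2 in control SR9009, and at 15, 13.6 and 14.5 in KO-labelled DMSO and 15.3, 15.9 and 16.4 in KO-labelled SR9009. It fell in control cells (-0.40, adjusted p = 0.0101) and had no call in KO-labelled cells (0.13, adjusted p = 0.357), with an interaction of 0.53 (adjusted p = 0.324). Insig1, the sterol-regulated brake on SREBP, rose in both, 1.24-fold and 1.64-fold (interaction 0.39, adjusted p = 0.477). Idi1, an isomerase of the pathway, was called in KO-labelled cells alone (log2 0.37; 0.10 in control, adjusted p = 0.234; interaction 0.27, adjusted p = 0.376). Acly, which makes cytosolic acetyl-CoA, fell in control cells from 249.6 ± 6.39 to 172 ± 8.03 FPKM (SD, n = 3) and stood at 269 ± 18.8 and 245 ± 7.44 in KO-labelled cells (interaction 0.40, adjusted p = 0.312); of the 17 genes of fatty acid synthesis tested, 3 interactions were positive and 0 negative.

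Among genes of gluconeogenesis and glycogen, SR9009 calls were mainly falls. Of 17 tested, 7 fell in control (over all genes 4.55%) and 6 in KO-labelled cells (over all genes 4.56%), 5 of them in both. A further 1 rose in both, 4 were alike, and 2 interactions were positive and 2 negative. Ppp1r3c, a glycogen-targeting subunit of protein phosphatase, stood at 6.79, 6.16 and 6.50 FPKM in control DMSO and 1.69, 1.59 and 1.97 in control SR9009, and at 5.46, 6.07 and 7.57 in KO-labelled DMSO and 2.86, 2.18 and 2.58 in KO-labelled SR9009. It fell to 0.270 and 0.399 of DMSO (interaction 0.39, adjusted p = 0.693). Pcx, pyruvate carboxylase, fell in KO-labelled cells from 179 ± 5.72 to 135 ± 2.99 FPKM and in control went from 124 ± 3.52 to 116 ± 4.65 (adjusted p = 0.28; interaction -0.31, adjusted p = 0.324, called on the FPKM scale). Tat, tyrosine aminotransferase, fell in both, by more in KO-labelled cells (-0.46 and -0.90; interaction -0.44, adjusted p = 0.549). In the separate list of glycolysis, also with 17 tested, 1 rose and 4 fell in each genotype, 3 of the falls in both, and 2 interactions were positive and 0 negative. Its member Pklr, liver pyruvate kinase, fell in control cells (-0.49, adjusted p = 0.0133) with -0.079 in KO-labelled cells (interaction 0.41, adjusted p = 0.613).

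Among the stress lists, the ATF4 response had calls in both directions. With 23 genes tested, 6 rose and 2 fell in control and 7 rose and 2 fell in KO-labelled cells. In this list 3 interactions were positive and 4 negative, and 4 genes were alike. Over all genes 3.69% rose and 4.55% fell in control cells, and 5.32% and 4.56% in KO-labelled cells. Fgf21, a fasting hormone, fell in control cells from 7.74 ± 1.35 to 3.72 ± 0.746 FPKM (adjusted p = 0.00432) and stood at 15.2 ± 1.93 and 12.8 ± 2.06 in KO-labelled cells (interaction 0.66, adjusted p = 0.599). Ddit3 (CHOP), a factor of ER stress, rose in control cells (0.63, adjusted p = 0.00188) with 0.17 in KO-labelled cells (interaction -0.46, adjusted p = 0.58), and Cebpb fell in KO-labelled cells (-0.32, adjusted p = 0.0287; interaction -0.48). Slc3a2, an amino acid transporter chain, rose in KO-labelled cells (0.43; -0.22 in control; interaction 0.65, adjusted p = 0.362). Of 17 heat shock genes, 2 rose in control and 8 in KO-labelled cells, and whether these counts differ between genotypes was not tested. Their interactions were positive for 3 and negative for 0, with a median of 0.09, and none was called. Hspa8, the constitutive chaperone, had changes of 0.14 in control cells (adjusted p = 0.0916) and 0.32 in KO-labelled cells (adjusted p = 0.000903). Of 17 p53 targets, 4 fell and 3 rose in control cells and 3 fell and 2 rose in KO-labelled cells. Cdkn1a (p21), the cell cycle inhibitor, fell in control cells (-0.35, adjusted p = 0.000998) with -0.14 in KO-labelled cells (interaction 0.21, adjusted p = 0.599).

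YAP and SRF targets, genes of the cytoskeleton and of matrix contact, had 13 of 16 interactions below 0 and a median of -0.21. At an unadjusted p under 0.05, 0 were positive and 2 negative, and 0 genes were alike. Over all 11213 tested genes 6238 interactions were above 0 and 483 genes were alike. Vim, vimentin, stood at 5.83, 4.75 and 4.62 FPKM in control DMSO and 23.3, 20.2 and 19.1 in control SR9009, and at 11.9, 8.59 and 5.79 in KO-labelled DMSO and 17.1, 16.9 and 9.92 in KO-labelled SR9009. It rose in control cells (1.85, adjusted p = 0.000655) and had 0.69 in KO-labelled cells (adjusted p = 0.0883), and the interaction of -1.16 (-1.87 to -0.45) was not called (adjusted p = 0.549). Ctgf, a secreted target of YAP, fell in KO-labelled cells from 26.7 ± 7.66 to 13.1 ± 1.47 FPKM (adjusted p = 0.00375) and in control went from 125 ± 7.18 to 108 ± 8.60 (interaction -0.72, adjusted p = 0.599). Vimentin is also made by non-hepatocyte liver cells. All 5 endothelial markers tested had interactions below 0, from -0.52 to -0.0014 (median -0.17). The sums of the 10 listed were 9.38 to 10.1 FPKM in the control and 13.4 to 19.9 in the KO-labelled libraries with DMSO. Kupffer cell markers went the other way, with 9 of 10 tested above 0 (median 0.13). The part of these cells in the YAP and SRF values was not tested.

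Responses called in 1 genotype only were common, and the test of the difference seldom set them apart. Of 372 genes called in control cells only, 330 (88.7%) moved the same way in KO-labelled cells, 165 of them at an unadjusted p under 0.05, and 2, Hmox2 and Vma21, were called for the interaction. Of 555 called in KO-labelled cells only, 501 (90.3%) moved the same way in control cells, 241 at an unadjusted p under 0.05, and 0 were called for the interaction. The interval of the interaction excluded 0 for 129 of the 372 and 189 of the 555, without adjustment, and lay inside 1.5-fold for 220 and 364. Among all genes called in control cells, 95.5% moved the same way in KO-labelled cells, and 95.1% of those called in KO-labelled cells did so in control cells, against 67.2% of all tested genes. The median gene called in control cells changed in KO-labelled cells by 0.822 of its control change, and the median gene called in KO-labelled cells changed in control cells by 0.716 of its KO-labelled change; each set was chosen by its call in the genotype whose change is the divisor.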

How the data were processed

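RNA of 12 hepatocyte libraries, polyadenylated and depleted of ribosomal RNA, was sequenced per the labels' protocols. The submitters' processing notes name HISAT2, StringTie and the build mm9; their versions, the annotation and the strand setting are unstated there. The authors deposited 1 table of gene values, taken as FPKM because library totals differ, since the header names no unit.

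Values were transformed to log2(FPKM + 1), which understates the change of low genes. The genes that reached 1 FPKM in 3 or more libraries were fitted with a mean per group in limma 3.58.1 (R 4.3.3, trend and robust), and all p-values for genes come from that fit, Benjamini-Hochberg adjusted over the 11213 tested genes. The fit was run on simulated libraries with seeded interactions and independent normal noise. Such a simulation does not cover effects shared by libraries, such as a plate or a mouse. A fold is a ratio of mean FPKM, and ± is the SD over 3 libraries. Read totals are unknown, so no counting interval is given.

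Members and lists were chosen with earlier results of these data known. Named were both REV-ERB genes, genes called for the interaction (or, to make up 5 per direction, those with the smallest p), the 8 alike genes per direction with the largest changes, 4 additive genes per pair of directions, up to 4 genes of smallest p per list, and the clock and REV-ERB-repressed genes, passing over unnamed models and levels under 5 FPKM for the interaction and alike genes. Some genes that the rule names are not reported here. Promoters came from RefSeq (GRCm38.p6) and were matched by symbol for 7500 of 11160 tested symbols (67.2%), too few to compare promoters between gene sets.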

Additional observations from a re-analysis of the deposited data

Results flagged for a closer look

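The SR9009 effect differed between control and KO-labelled cells, by the test of the difference itself, for 3 genes. The log2 interaction was 0.86 for Hmox2 and 1.15 for Vma21, where the fall with SR9009 was present in control cells alone by the test, and -0.83 for Gstm3, where the rise was larger in control cells on the log scale.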

How the results depend on the processing

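The 3 interaction calls became 2 with a pseudocount of 0.1, 4 with 5, 1 with no filter on low values, with quantile normalization, with libraries scaled to one median or with limma without trend and robust variance, 0 with the replicate number as a block, 1 (Bola1) without both of the shallowest libraries, 6 at an adjusted p under 0.1, and 24 on the FPKM scale without a log. On that scale Gstm3 turned to 321.9 and Cyp2b10 to -334.4 FPKM. With the replicate block Hmox2 and Gstm3 had an adjusted p of 0.0615 and Vma21 of 0.0828. The numbers were not taken as pairs because the labels do not say that a number marks a shared mouse, day or plate. Same-numbered libraries deviated together with r from -0.112 to 0.122, 1 of 18 pairs over 0.1, and differently numbered ones with -0.117 to 0.181. Of 12 libraries, 5 correlated best with their own number. With 3 libraries per group these values cannot decide whether the numbers mark pairs. The 2 called interactions seen in control cells only became 1 with pseudocount 0.1, no filter, quantile normalization, median scaling, limma without trend, or without the shallowest libraries, and 0 with the block; the 1 called in both the same way became 2 with pseudocount 5 and 0 with no filter, quantile, median scaling, limma without trend, the block, or without the shallowest libraries. Without those libraries SR9009 in control gave 609 calls and 150 genes were additive; with no filter 146 were. The cause was not tested.

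Leaving out 1 library at a time gave 0 to 5 interaction calls, 530 to 919 for SR9009 in control, 603 to 1438 in KO-labelled cells, 1607 to 2718 for loss in DMSO, 363 to 553 called in both the same way, 0 to 2 opposite ways, 300 to 469 alike and 123 to 251 additive; called interactions numbered 0 to 2 in control only, 0 to 1 in KO-labelled only, 0 to 2 in both the same way and 0 to 1 opposite. The most calls for SR9009 in KO-labelled cells and for loss, 1438 and 2718, came without control SR9009 library 3. With 3 libraries per group the median interval spans 1.27-fold either way; how depth bears on its width was not tested.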

Other observations

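Further gene groups of the hepatocyte had no interaction called; over all tested genes 7.02% had an interaction at an unadjusted p under 0.05 and 68.7% an interval inside 1.5-fold. Of 13 mRNAs of the mitochondrial chromosome, 0 changed with SR9009 in either genotype by the test. Their median interaction was -0.11, with 1 above 0, against 6238 of 11213 over all tested genes. The 1 negative interaction at an unadjusted p under 0.05 was that of mt-Co1 (-0.26, adjusted p = 0.673). Of the 13 intervals, 10 lay inside 1.5-fold. Of 29 tested genes of fatty acid oxidation and PPARα, 27 had an interaction interval inside 1.5-fold, with a median of 0.0032. Of 20 interferon response genes, 0 had an interaction at an unadjusted p under 0.05, but only 12 intervals lay inside 1.5-fold and the interactions ran from -0.30 to 0.69, so larger differences could be present in this list; Rsad2, an antiviral radical enzyme, stood at 11.3 ± 0.284 and 9.79 ± 0.511 FPKM (SD, n = 3) in control and at 22.3 ± 4.16 and 23.4 ± 4.20 in KO-labelled cells with DMSO and SR9009. Of 11 cell cycle and DNA replication genes tested, of 25 listed, all had intervals inside 1.5-fold.

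Among 26 acute phase genes, 2 interactions were positive and 3 negative at an unadjusted p under 0.05, and 0 were called; 23 intervals lay inside 1.5-fold. Lcn2, the iron-binding lipocalin, fell in KO-labelled cells from 1125 ± 93 to 626 ± 49.9 FPKM (adjusted p = 0.00175) and went from 1729 ± 268 to 1453 ± 245 in control cells (adjusted p = 0.289; SD, n = 3), with an interaction of -0.59 (adjusted p = 0.599). Socs3, a brake on cytokine signalling, fell in control cells (log2 change -0.44, adjusted p = 0.0352) and had a change of 0.0088 in KO-labelled cells, with an interaction of 0.45 (adjusted p = 0.614). Of 13 bile acid genes tested, 12 had intervals inside 1.5-fold. Abcb4, the phospholipid exporter of the canaliculus, fell in KO-labelled cells from 75.3 ± 4.26 to 59.8 ± 1.22 FPKM (adjusted p = 0.00464) and went from 38.2 ± 1.22 to 33.9 ± 1.96 in control cells, with an interaction of -0.16 (adjusted p = 0.744).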
